A study of Mus musculus with 2 samples.

Results

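The serine/arginine-rich (SR) splicing factor genes Srsf1, Srsf2, Srsf3, Srsf4, Srsf5, Srsf6, Srsf7, Srsf9, Srsf10 and Srsf11 were followed in 2 single-nucleus RNA-sequencing libraries of C2C12 cells, a mouse myoblast line. These 10 genes were chosen by symbol, out of 55414 genes in the matrices, of which 21627 were protein-coding. For both libraries, myoblasts grown to near confluence were lysed with detergent, and the nuclei were fixed in cold methanol, stored cold and captured in droplets that tag each RNA molecule with a barcode and a unique molecular identifier (UMI). The first library came from nuclei incubated warm with yeast poly(A) polymerase and ATP (in situ polyadenylation). The enzyme adds adenines to RNA 3′ ends, and RNAs that lack a tail of their own then become visible to oligo(dT) primers. The second came from nuclei given neither the enzyme nor the incubation (the standard library). These were counted right after wash buffer was added, whereas the treated nuclei were also washed, spun and resuspended in another buffer. Enzyme, incubation and these later steps therefore cannot be told apart. In tissue sections, the authors found that the RNase inhibitor used for these nuclei did not keep longer transcripts from degrading during in situ polyadenylation. Whether this happened in these nuclei was not tested.

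A barcode with more than 750 UMIs counted by kallisto, which matches reads to annotated transcripts, was taken as a nucleus if under 5% of its UMIs were mitochondrial. This kept 1335 in situ polyadenylated nuclei with 1974289 UMIs and 1123 standard nuclei with 1382804 UMIs. Barcodes with 1 to 100 UMIs, here called low-UMI barcodes, numbered 229964 and 226358. The myoblast markers Des and Vim had 360 and 922 UMIs after in situ polyadenylation and 636 and 1314 in the standard nuclei, Cdh15 and Itga7 had 42 to 228, and Myod1, Myf5 and Chrna1 had 6 to 18. Of markers of other cell types, Epcam (epithelium), Adipoq (adipocytes) and Rbfox3 (neurons) had 0 kallisto UMIs in both, Ptprc (leukocytes) had 0 and 4, and Pecam1 (endothelium) had 10 and 35. By STAR, the genome-based count described below, Rbfox3 had 105 and 43 UMIs and Pecam1 had 70 and 53. Myod1 had 54 and 60 STAR UMIs and Des had 931 and 1752, while Ptprc, Epcam and Adipoq had 6 or fewer. No nucleus type that lacks SR genes is present in this line, so no background share was available from these data. Each group was 1 library, so there are no replicates, no difference between the libraries could be tested, and every interval below is a 95% interval that covers counting error only. The 2 matrices held 50944 barcodes in common, but 0 of the retained nuclei shared a barcode.

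SR proteins hold an RNA recognition motif followed by a stretch rich in arginine and serine. They bind exons in pre-mRNA, help the spliceosome find splice sites and, for several of them, also accompany mRNA to the cytoplasm. SR genes are known for controlling their own output: their pre-mRNAs can include an exon with an early stop codon, or keep an intron, and the resulting RNA is either broken down by nonsense-mediated decay or held in the nucleus. Nuclear RNA can therefore hold spliced, unspliced and unproductive forms of these genes side by side.

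All 10 genes were located in the GENCODE M39 annotation of the GRCm39 build, the build of the deposited matrices. Srsf11 lies on chromosome 3 from 157716110 to 157742310 on the minus strand, and its canonical transcript has 13 exons, with introns making up 88.0% of the span. Srsf1 (chromosome 11, 87938129 to 87944581) has the smallest intron share, 15.8%, and Srsf4 (chromosome 4, 131600816 to 131630471) the largest, 91.7%. Each of the 10 had at least 1 annotated transcript subject to nonsense-mediated decay, and 8 of them, all but Srsf9 and Srsf10, also had a retained-intron transcript. Among 21770 protein-coding genes of that annotation, 33.5% had both kinds. Srsf11 had 11 retained-intron transcripts, the most of the 10, ahead of 4 for Srsf3. The matrices give UMIs per gene, so these forms cannot be told apart in the values below.

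The unproductive exons of Srsf3, Srsf4 and Srsf11 are shown because, among the exons found by 1 rule (for each gene, the decay transcript of lowest number whose stop codon lies in an internal exon), these 3 overlapped no exon of a protein-coding transcript. Each is printed from its first base through the stop codon that ends the reading frame early, which is in capitals. The whole exons measure 456, 207 and 109 bases.
Srsf3, chr17:29258428-29258461, plus strand: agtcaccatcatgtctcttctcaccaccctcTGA
Srsf4, chr4:131611587-131611701, plus strand: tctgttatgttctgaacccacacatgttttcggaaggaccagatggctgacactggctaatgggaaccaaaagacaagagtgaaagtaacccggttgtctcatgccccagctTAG
Srsf11, chr3:157729846-157729868, minus strand: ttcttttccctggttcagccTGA
The stop codon was reached after 34 bases of the Srsf3 exon, 115 bases of the Srsf4 exon and 23 bases of the Srsf11 exon.

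Levels were compared first, because the SR genes did not contribute equally. Srsf11 encodes an SR-like protein that works with splice site recognition factors at intron ends. It had 2073 UMIs in in situ polyadenylated and 2094 in standard nuclei, ranked 12 among all protein-coding genes in both, and made up 76.2% (74.5 to 77.8) and 63.3% (61.7 to 65.0) of the family's UMIs. By STAR, described below, its share was 58.6% (57.5 to 59.7) and 42.0% (41.1 to 42.9). A UMI counts a molecule whatever its length, so dividing by length can change the order of genes. Per kb of canonical transcript, Srsf11 stood at 334 (320 to 349) and 482 (462 to 503) UMIs per 1000000 (CPM per kb). Its rank by that measure was 10 and 7 among protein-coding genes, and its kallisto interval overlapped that of no other SR gene in either library. By STAR its rank in UMIs was 45 and 48. Per kb of gene, Srsf11 stood at 15.4 STAR CPM after in situ polyadenylation, against 13.5 for Srsf2, and at 29.5 in the standard nuclei, below the 39.7 of Srsf2.

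The next SR genes were far lower by kallisto. Srsf5, first found as a gene of regenerating liver, had 88 UMIs in in situ polyadenylated and 214 in standard nuclei, or 23.7 (19.0 to 29.2) and 82.2 (71.5 to 94.0) CPM per kb. Srsf2 (SC35), which shuttles little and marks nuclear speckles, had 164 and 173 UMIs, or 33.3 (28.4 to 38.9) and 50.2 (43.0 to 58.3) CPM per kb. Srsf3, the smallest SR protein and an mRNA export adaptor, had 80 and 201 UMIs, or 14.0 (11.1 to 17.4) and 50.1 (43.4 to 57.6) CPM per kb. Per kb, Srsf5 was thus above Srsf2 in the standard nuclei and below it in the in situ polyadenylated nuclei, where their intervals overlapped. In CPM not divided by length, the overlap was in the standard nuclei, at 155 (135 to 177) for Srsf5 and 125 (107 to 145) for Srsf2. In the in situ polyadenylated nuclei Srsf5 was then lower, at 44.6 (35.7 to 54.9) against 83.1 (70.8 to 96.8).

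Srsf10, a splicing repressor when dephosphorylated, had 71 and 182 UMIs, or 11.8 and 43.0 CPM per kb. Srsf7, an export adaptor with a zinc knuckle, had 59 and 129 UMIs, or 12.2 and 38.2 CPM per kb. Srsf4 and Srsf6 are larger SR proteins with a pair of RNA recognition motifs, and they had 14.6 and 8.95 CPM per kb in the in situ polyadenylated nuclei and 25.8 and 20.5 in the standard nuclei. In counts, Srsf4 had 68 and 84 UMIs and Srsf6 had 84 and 135. Neighbours in this middle group, from rank 4 to rank 8 in the in situ polyadenylated nuclei and from rank 3 to rank 8 in the standard nuclei, had overlapping intervals per kb.

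Srsf1 and Srsf9, close relatives that also carry paired recognition motifs, were lowest in both libraries by kallisto per kb. Srsf1 (ASF/SF2), a founding member of the family, had 29 and 77 UMIs, or 2.704 (1.811 to 3.884) and 10.3 (8.09 to 12.8) CPM per kb. Srsf9 had 6 and 18 UMIs, or 2.60 (0.953 to 5.65) and 11.1 (6.59 to 17.6) CPM per kb, and their per-kb intervals overlapped within each library. In the standard nuclei, the per-kb interval of Srsf9 also reached that of Srsf6. In CPM not divided by length, Srsf1 had 14.7 (9.84 to 21.1) and 55.7 (43.9 to 69.6). Srsf9 then had 3.04 (1.12 to 6.61) and 13.0 (7.71 to 20.6), apart from Srsf1 in each library. By STAR per kb of gene, Srsf9 was again lowest (0.427 and 0.892 CPM), but Srsf4 (0.987 and 4.29) and Srsf10 (1.77 and 7.18) lay below Srsf1 (2.55 and 8.82). Gene length here is the outer extent in GENCODE M39, which for Srsf10 is 19506 bases. Its canonical transcript has 3058 bases of exon and 7011 of intron, so the place of Srsf10 below Srsf1 rests on that extent. In STAR UMIs, Srsf10 had 398 and 873 and Srsf1 had 190 and 355. The related gene Srsf12 had 1 and 2 UMIs and the annotated pseudogene Srsf3-ps 1 and 0.

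**Figure D1:**
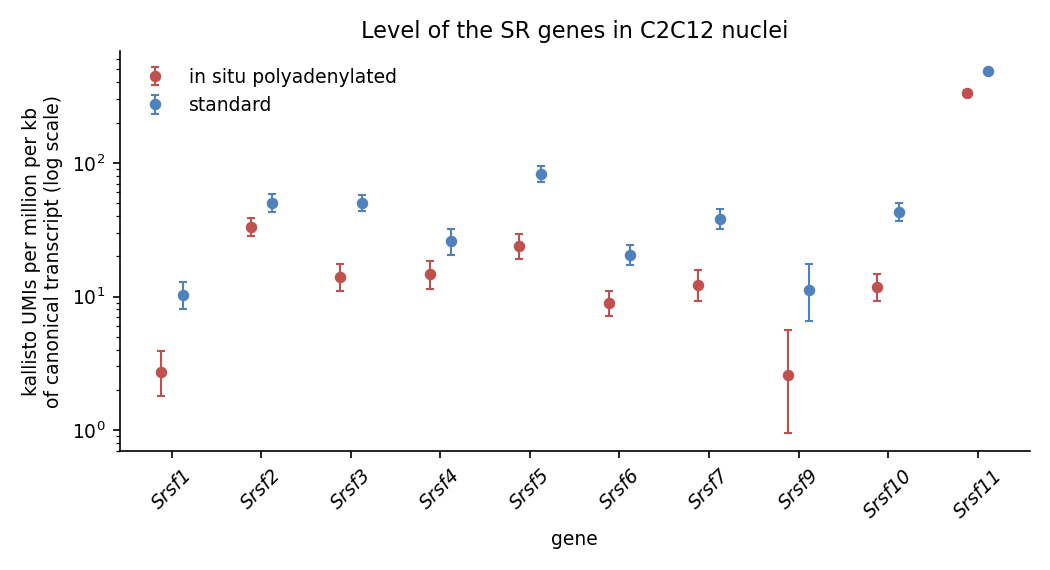
Level of each SR gene in in situ polyadenylated (red) and standard (blue) nuclei, in kallisto UMIs per 1000000 per kb of canonical transcript on a log axis, with 95% counting intervals as bars. Srsf11 stands at 334 and 482, and no other SR gene exceeds 82.2.

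The question put to the libraries next was which SR genes held a larger or smaller place after in situ polyadenylation. Protein-coding genes held 29.1% of all UMIs after in situ polyadenylation and 55.5% without it. Among those that reached 50 UMIs in both libraries, the median log2 ratio of CPM, in situ polyadenylated over standard, was -1.19. Kallisto ratios below are on the log2 scale relative to that median, and STAR ratios are relative to the STAR median given with them. Of the 10 SR genes, 8 had at least 50 UMIs in each library, with Srsf1 and Srsf9 below it in the in situ polyadenylated nuclei. Of these 8, 0 were past 2-fold, against 1.61% of 2117 protein-coding genes higher and 1.37% lower.

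Srsf11 and Srsf2 were relatively higher in the in situ polyadenylated nuclei. Srsf11 went from 1514 CPM in the standard nuclei to 1050 CPM, a relative log2 ratio of 0.66 (0.58 to 0.75), and Srsf2 went from 125 to 83.1 CPM, a relative ratio of 0.60 (0.28 to 0.92). Among the protein-coding genes, 93.1% and 91.0% had lower values. In CPM without that adjustment, both were lower in the in situ polyadenylated library, with log2 ratios of -0.53 and -0.59. Among nuclei above 1500 UMIs, the relative ratio of Srsf11 was 0.65, but that of Srsf2 was 0.11.

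Srsf3, Srsf5, Srsf10 and Srsf1 were relatively lower, with intervals that did not reach 0. Srsf3 went from 145 to 40.5 CPM (-0.65, -1.04 to -0.27), Srsf5 from 155 to 44.6 CPM (-0.60, -0.98 to -0.24) and Srsf10 from 132 to 36.0 CPM (-0.68, -1.10 to -0.28). Srsf1 went from 55.7 to 14.7 CPM (-0.73, -1.40 to -0.098), on 29 UMIs after in situ polyadenylation. The intervals of Srsf4 (0.37, -0.11 to 0.85), Srsf6 (-0.0064, -0.42 to 0.40), Srsf7 (-0.45, -0.92 to 0.0047) and Srsf9 (-0.91, -2.53 to 0.49) all held 0, so a difference in these 4 was not detectable at this depth. Among nuclei above 1500 UMIs, Srsf4 was at 0.93.

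STAR, which aligns reads to the genome, gave more UMIs for the same nuclei, with 1328 of the 1335 in situ polyadenylated nuclei and all 1123 standard nuclei found in its matrix. Among protein-coding genes with at least 50 STAR UMIs in both libraries, the median log2 ratio of CPM was -1.92. STAR ratios are relative to that median. With STAR all 10 SR genes reached 50 UMIs in each library, and again 0 were past 2-fold, against 5.38% of 7752 protein-coding genes higher and 1.20% lower. Srsf11 had 4653 and 4828 STAR UMIs and a relative log2 ratio of 0.98 (0.92 to 1.04), just inside the 2-fold line. Srsf2, with 593 and 940 UMIs, was at 0.37 (0.22 to 0.52). Both were thus relatively higher by either count.

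The lower group was less uniform by STAR. Srsf3 (353 and 910 UMIs) and Srsf5 (445 and 1083 UMIs) were at -0.33 (-0.51 to -0.15) and -0.25 (-0.41 to -0.089). Srsf10 (398 and 873 UMIs) was at -0.10 (-0.27 to 0.073) and Srsf1 (190 and 355 UMIs) at 0.13 (-0.13 to 0.39), both with intervals that held 0, and Srsf1 changed sign from its kallisto value. Srsf9 (55 and 62 UMIs) was at 0.86 (0.31 to 1.41), the opposite sign of its kallisto value. Srsf4 (338 and 794 UMIs) was at -0.20 (-0.39 to -0.013), Srsf6 (459 and 805 UMIs) at 0.22 (0.055 to 0.39) and Srsf7 (453 and 852 UMIs) at 0.12 (-0.045 to 0.29), so these 3 changed sign as well. For these 3 and Srsf9 the kallisto intervals held 0, so the change of sign is within counting error of the kallisto values. Summed without Srsf11, the other 9 genes were at -0.22 (-0.36 to -0.086) by kallisto and at 0.011 (-0.050 to 0.071) by STAR, whereas all 10 summed were at 0.40 and 0.50. The direction of a family sum was therefore that of Srsf11.

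**Figure D2:**
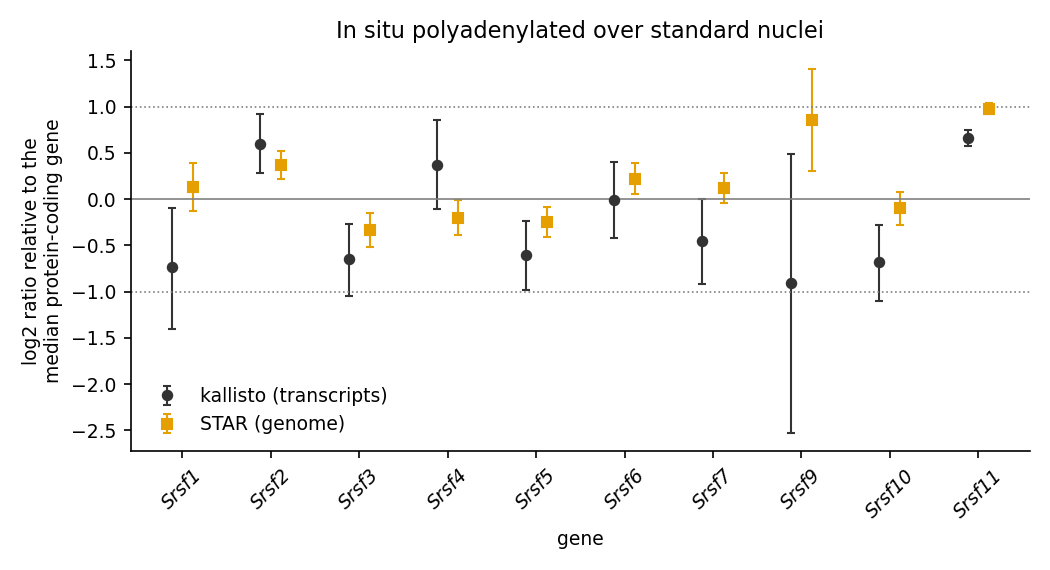
Log2 ratio of in situ polyadenylated over standard nuclei for each SR gene, relative to the median protein-coding gene, by kallisto (black circles) and STAR (orange squares), with 95% counting intervals as bars and dotted lines at 2-fold. Srsf11 and Srsf2 lie above 0 by both counts, Srsf3 and Srsf5 below 0 by both, and Srsf1, Srsf4, Srsf6, Srsf7 and Srsf9 change sign. Of those that change sign, only Srsf1 has a kallisto interval that leaves out 0.

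STAR and kallisto were then set against each other in the same nuclei, since a read inside an intron can match the genome but not a spliced transcript. Where a retained intron is part of an annotated transcript, kallisto can count such a read too. STAR and kallisto count the same library, so the ratio carries no interval. The sources used here do not give which parts of a gene, or which strand, the STAR matrix counted. The median protein-coding gene had 3.87 STAR UMIs per kallisto UMI in the in situ polyadenylated nuclei and 4.65 in the standard nuclei. Genes whose canonical transcript is under 25% intron had a median of 2.55 in the standard nuclei, so the ratio is above 1 even there and is not a measure of intron reads alone.

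Srsf11 had the lowest ratio of the 10 in both libraries, with 2.25 STAR UMIs per kallisto UMI in the in situ polyadenylated nuclei and 2.31 in the standard nuclei. Srsf4 had the highest ratio in the standard nuclei, 9.45, against 5.04 in the in situ polyadenylated nuclei. These were the 2 SR genes past 2-fold of the median in the standard nuclei, Srsf4 above it (1.03 on the log2 scale) and Srsf11 below it (-1.01), among 9 SR genes with at least 50 kallisto UMIs. The background in the standard nuclei was 15.6% of 3671 protein-coding genes higher and 7.44% lower. In the in situ polyadenylated nuclei, 0 of 8 SR genes were past 2-fold, against 9.32% of 2168 genes higher and 6.32% lower. Counts of this size are near the background. Srsf11 has 11 annotated retained-intron transcripts and Srsf4 has 1, and the part of such transcripts in these ratios was not tested.

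Intron share did not order the SR genes. Srsf11 and Srsf4, with intron shares of 88.0% and 91.7%, stood at opposite ends in the standard nuclei, and Srsf1, with the least intron, had 6.55 in the in situ polyadenylated nuclei and 4.61 in the standard nuclei. Spearman's rho between intron share and the ratio was -0.24 and -0.20 over the 10 SR genes in the 2 libraries, against 0.51 and 0.63 over the protein-coding genes. The protein-coding genes had at least 50 kallisto UMIs, a minimum not set for the SR genes. Srsf9, on 6 and 18 kallisto UMIs, and Srsf1, on 29 in the in situ polyadenylated nuclei, fall below it. These values of rho describe genes of a shared library and are not tests.

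Against genes of a like intron share, most SR genes had high ratios. In the standard nuclei, Srsf2 (5.43) and Srsf6 (5.96) exceeded 96.0% and 97.7% of the 173 genes with 25 to 50% intron, whose median was 2.92. Srsf7 (6.60), Srsf5 (5.06), Srsf10 (4.80) and Srsf3 (4.53) exceeded 96.4%, 85.8%, 81.9% and 77.8% of the 667 genes with 50 to 75% intron, whose median was 3.31. Srsf11 was the reverse: it exceeded 5.42% of the 1513 genes with 75 to 90% intron, whose median was 4.41. At the ends of the range, Srsf1 exceeded 91.0% of the 67 genes under 25% intron, and Srsf4 exceeded 64.3% of the 1251 genes over 90%, whose median was 7.39. In the band of Srsf11, Srsf9 (3.44, on 18 kallisto UMIs) exceeded 26.8%. In the in situ polyadenylated nuclei, the ratio was above the band median for 8 of the 10, among them Srsf1 and Srsf9 on 29 and 6 kallisto UMIs. Srsf4 lay at it (5.04 against 5.06) and Srsf11 was again below (2.25 against 3.696).

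Between the libraries, Srsf3 (4.47 and 4.53), Srsf5 (5.06 and 5.06) and Srsf11 kept nearly the same ratio. Srsf2 had 3.64 in the in situ polyadenylated nuclei and 5.43 in the standard nuclei, and Srsf4 had the gap given above. Genes on the opposite strand overlap several members, and without a stated strand setting their reads and the members' cannot be told apart in the STAR counts. Mettl23 spans all of Srsf2 and had 101 and 32 STAR UMIs, and Mfsd11, which also overlaps it, had 266 and 468. Their part in the Srsf2 ratio was not tested. On the same strand, Gm43362 overlaps Srsf11 with 8 and 32 kallisto UMIs and A930004J17Rik overlaps Srsf4 with 6 and 32, and both had 0 STAR UMIs in either library.

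**Figure D3:**
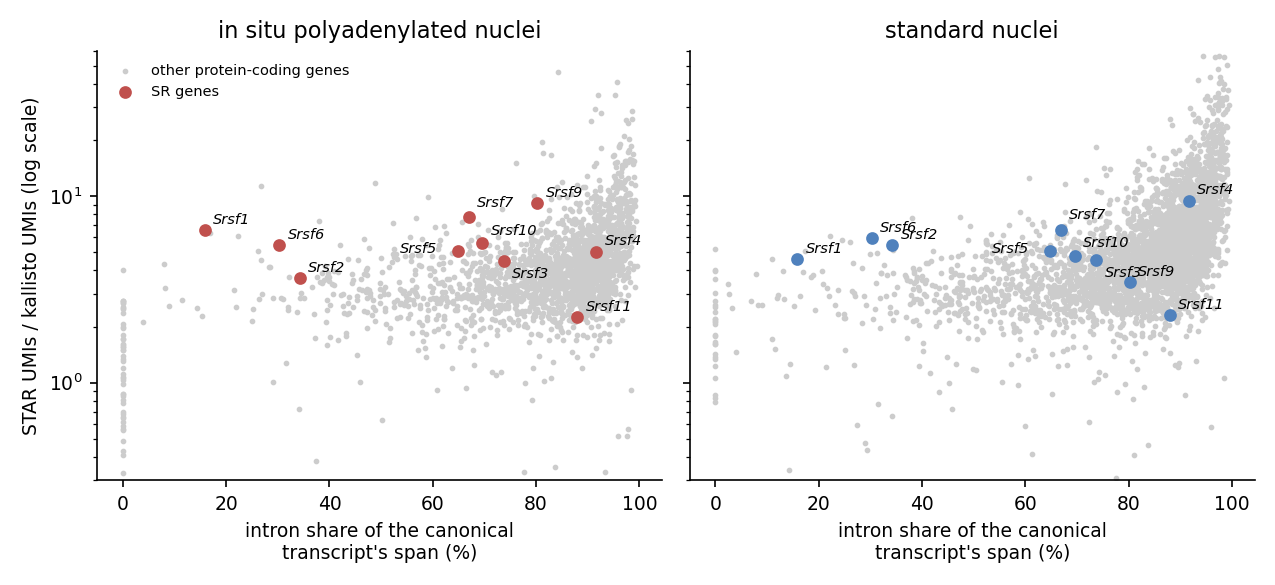
Ratio of STAR to kallisto UMIs in the same nuclei (log axis) against the intron share of the canonical transcript's span, for protein-coding genes with at least 50 kallisto UMIs (grey) and the 10 SR genes (coloured), in each library. The axis runs from 0.3 to 60 and leaves out 27 and 57 genes beyond it. Srsf11 lies at the lower edge of genes of its intron share at 2.25 and 2.31.

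Srsf11 also differed in intron sequence. Runs of at least 10 adenines on the gene's strand were counted in the introns of the canonical transcripts, because oligo(dT) can pair with such runs as well as with a tail. Srsf11 had 10 runs, Srsf3 had 2, Srsf5, Srsf7 and Srsf10 had 1 each and the other 5 had 0, whereas 23.2% of 3671 protein-coding genes had 0 and the median was 3. The 10 SR genes have a median of 4840 bases of intron, against 25690 in those genes. In number of runs, 82.7% of genes had fewer than Srsf11. Per 10 kb of intron, Srsf11 had 4.34 runs against a median of 0.93, and 98.6% of genes had fewer. Srsf5 (2.88), Srsf3 (2.46), Srsf7 (2.03) and Srsf10 (1.43) were also above that median. The runs of Srsf11 measured 10 to 23 bases, and 1 of the 10 lay inside exons of 5 other annotated Srsf11 transcripts. The 2 longest and the exonic run are shown with 25 bases on either side, the run in capitals.
Srsf11 intron, chr3:157735774-157735846, minus strand: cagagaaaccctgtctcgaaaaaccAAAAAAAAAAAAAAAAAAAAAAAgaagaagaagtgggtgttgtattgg
Srsf11 intron, chr3:157718946-157719014, minus strand: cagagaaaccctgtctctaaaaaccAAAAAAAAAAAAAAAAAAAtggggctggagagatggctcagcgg
Srsf11 intron, chr3:157730336-157730395, minus strand: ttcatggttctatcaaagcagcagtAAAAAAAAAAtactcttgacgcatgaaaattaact
A run is a match of letters, and whether any UMI came from these places was not tested.

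The SR genes were next compared between nuclei and low-UMI barcodes of the same library, taken here as RNA outside the retained nuclei. Values are log2 ratios, low-UMI barcodes over nuclei, relative to the median of protein-coding genes that reached 50 UMIs in both. In both libraries, Srsf11 was below 0 and the other 9 SR genes were above 0. Of the SR genes with enough UMIs, 1 of 8 was past 2-fold in the in situ polyadenylated library (Srsf5), against 1.35% of 2072 protein-coding genes higher and 0.965% lower. In the standard library it was 0 of 9, against 0.793% of 3658 genes higher and 1.23% lower.

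Srsf11 had 607 CPM in low-UMI barcodes and 1050 in nuclei of the in situ polyadenylated library, a relative log2 ratio of -0.88 (-0.98 to -0.78). In the standard library it had 1089 and 1514 CPM, a relative ratio of -0.54 (-0.62 to -0.45). Of the protein-coding genes, 1.59% and 10.5% had lower values. Its share of the UMIs of the 10 genes was 53.1% (51.1 to 55.2) and 46.5% (45.2 to 47.8) in low-UMI barcodes, below its share in nuclei.

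Srsf5 and Srsf7 were at the other end. Srsf5 had 101 CPM in low-UMI barcodes against 44.6 in nuclei of the in situ polyadenylated library (1.09, 0.72 to 1.46) and 224 against 155 CPM in the standard library (0.47, 0.24 to 0.71). Srsf7 had 55.0 against 29.9 CPM (0.79, 0.32 to 1.27) and 185 against 93.3 CPM (0.92, 0.64 to 1.22), and 96.5% and 98.6% of protein-coding genes had lower values. Srsf6 was at 0.77 (0.38 to 1.17) and 0.31 (0.016 to 0.62), and Srsf2 at 0.43 (0.14 to 0.72) and 0.56 (0.31 to 0.82). Srsf3 was at 0.58 (0.16 to 1.00) and 0.33 (0.090 to 0.58), and Srsf1 at 0.70 (0.014 to 1.40) and 0.59 (0.21 to 0.99). All of these intervals lay above 0.

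For Srsf4 (0.14 in both libraries) and Srsf10 (0.24 and 0.17) the intervals held 0. Srsf9 was at 1.44 (0.044 to 3.06) and 0.62 (-0.18 to 1.49), on 18 and 50 UMIs in low-UMI barcodes. Summed, the 9 genes other than Srsf11 were at 0.62 (0.48 to 0.76) and 0.45 (0.36 to 0.55).

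**Figure D4:**
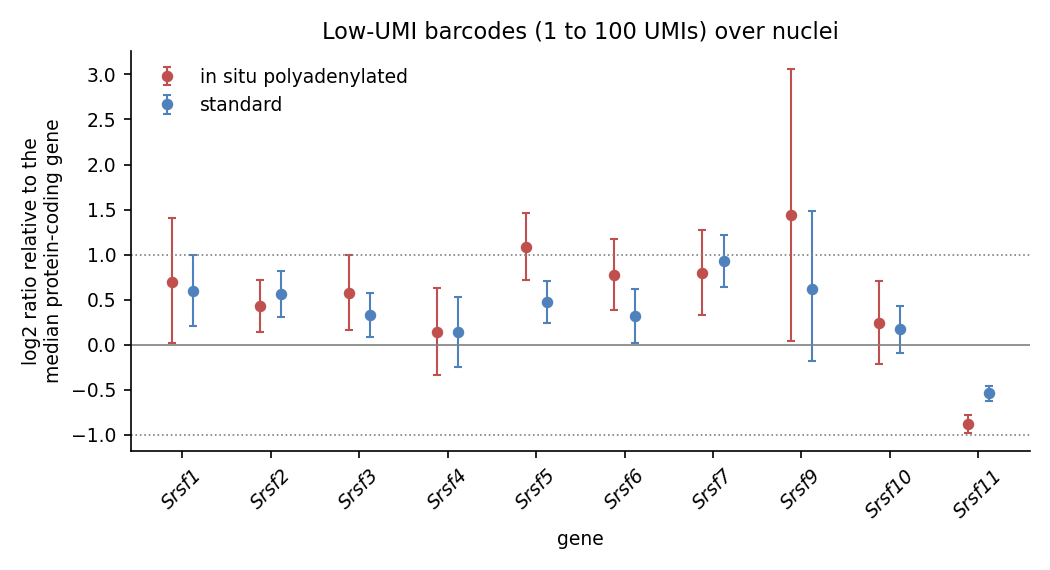
Log2 ratio of low-UMI barcodes (1 to 100 UMIs) over nuclei for each SR gene, relative to the median protein-coding gene, in the in situ polyadenylated (red) and standard (blue) library, with 95% counting intervals as bars and dotted lines at 2-fold. Srsf11 is the lowest in both, at -0.88 and -0.54, and the other 9 lie above 0.

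The contrast turned between barcodes of 11 to 100 UMIs and deeper ones of 101 to 500. After in situ polyadenylation, Srsf11 had 1933 (1822 to 2049) UMIs per 1000000 protein-coding UMIs in barcodes of 11 to 100 UMIs and 3893 (3742 to 4049) in barcodes of 101 to 500 UMIs. In the standard library these values were 1863 (1788 to 1939) and 3384 (3321 to 3448). The other 9 SR genes together went the other way, from 1703 (1599 to 1812) to 1175 (1093 to 1262) and from 2175 (2095 to 2258) to 1576 (1533 to 1620). In barcodes of 1 to 10 UMIs, Srsf11 had 1429 (1187 to 1704) and 2107 (1853 to 2385), and the other 9 had 1278 (1050 to 1540) and 2056 (1806 to 2331), with overlapping intervals in each library. With barcodes of 101 to 500 UMIs in place of those of 1 to 100, the relative log2 ratio of Srsf11 over nuclei was 0.17 and 0.32, the other sign. The share of barcodes that the STAR matrix lists rose at this step and more at the next. It holds 0.0172% and 0.0318% of barcodes with 11 to 100 UMIs, and 17.4% and 20.6% of those with 101 to 500. Of those with 501 to 750 UMIs it holds 87.2% and 99.9%.

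Within deeper barcodes the level of Srsf11 was lower again. It had 4063 (3805 to 4335) and 3413 (3264 to 3568) UMIs per 1000000 protein-coding UMIs in barcodes of 501 to 750 UMIs, and 3282 (3073 to 3502) and 2434 (2251 to 2628) above 1500 UMIs. The other 9 genes had 1010 (883 to 1151) and 1498 (1399 to 1601) at 501 to 750 UMIs, and 1152 (1029 to 1285) and 1718 (1565 to 1882) above 1500, with overlapping intervals.

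**Figure D5:**
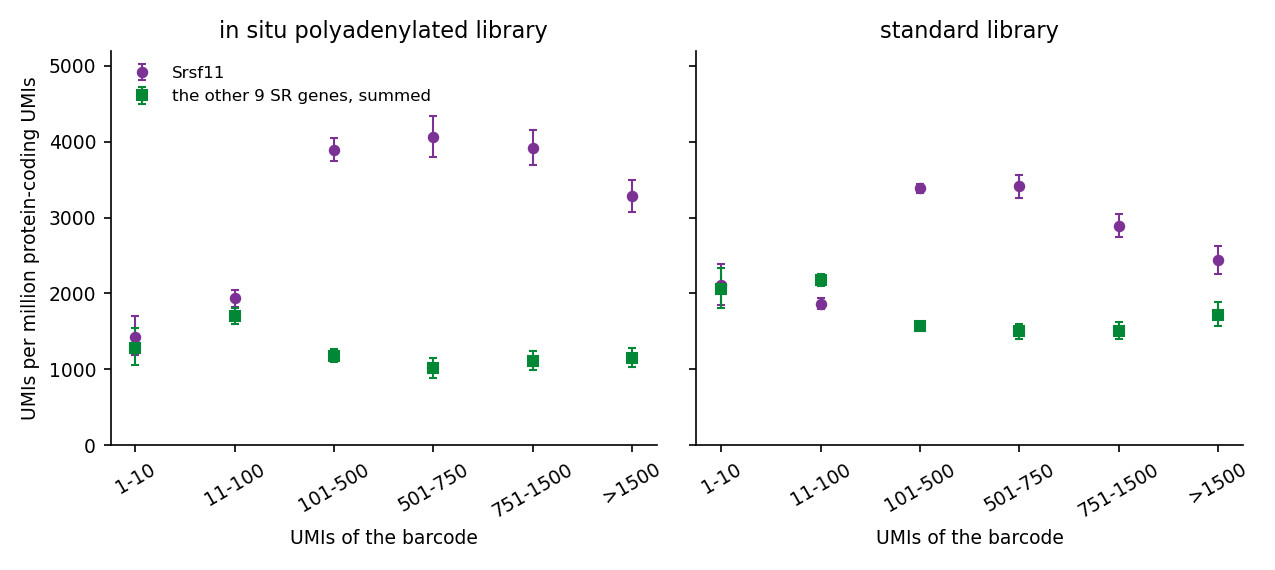
Level of Srsf11 (purple circles) and of the other 9 SR genes together (green squares), in UMIs per 1000000 protein-coding UMIs, by the UMIs of the barcode, with 95% counting intervals as bars. Srsf11 steps up between 11 to 100 and 101 to 500 UMIs, from 1933 to 3893 and from 1863 to 3384, and the other 9 step down.

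Single nuclei were seldom deep enough to show an SR gene other than Srsf11. With each nucleus thinned to 750 UMIs, which left out 3 standard nuclei, a UMI of Srsf11 was present in 53.7% (51.0 to 56.4) of in situ polyadenylated and 65.5% (62.7 to 68.3) of standard nuclei. The other SR genes ranged from 0.225% (Srsf9) to 6.74% (Srsf2) and from 0.536% (Srsf9) to 10.3% (Srsf3). Thinning was over all UMIs, of which protein-coding genes held 29.1% and 55.5%. These shares are therefore not relative to the median gene. Unthinned, Srsf11 was present in 72.1% and 77.2%, and in 92.4% and 96.0% by STAR. At least 1 of the 10 was present in 63.8% and 82.9% of thinned nuclei, which held a median of 1 SR gene with a UMI. By STAR, the median was 3 SR genes in the in situ polyadenylated nuclei and 5 in the standard nuclei. Across nuclei, the STAR shares of 2 SR genes were nearly unrelated: the median Pearson's r over 45 pairs was 0.016 and 0.010, with no pair above 0.0925, in counts this sparse and sharing each nucleus's depth.

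Other splicing genes gave a frame for these values. For in situ polyadenylated over standard nuclei by kallisto, the median relative log2 ratio was -0.23 over the 8 SR genes measured, with 3 above 0, and 0 over all protein-coding genes by construction. It was 0.092 over 16 of 18 SR-related proteins, with 9 above 0, from Acin1 (0.84, an apoptosis and splicing factor) to Luc7l2 (-1.09, a U1 snRNP partner, the 1 gene of these lists past 2-fold by kallisto). For 6 of 9 SR protein kinases and import factors it was -0.31, from Clk2 (0.12) to Clk1 (-0.89), both kinases that phosphorylate SR proteins in the nucleus. It was -0.36 over 15 of 25 hnRNPs and PTB proteins, from Hnrnpu (0.90) to Hnrnpr (-0.92).

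By kallisto, the spliceosome core and the decay factors lay closer to 0. The median was -0.10 over 10 of 26 core genes, from Prpf8 (0.28) to Sf3b3 (-0.34). It was -0.074 over all 8 nonsense-mediated decay genes, from Smg5 (0.097) to Upf3b (-0.23). By STAR, the medians were 0.13 over the 10 SR genes, 0.12 over the SR-related genes, -0.14 over the kinases and import factors, -0.0082 over the hnRNPs, 0.17 over the core and -0.070 over the decay genes. Smg5 was then at 1.32, past 2-fold, as were 2 hnRNPs. In low-UMI barcodes over nuclei, the SR genes and the SR-related genes lay on opposite sides: the medians were 0.50 over 8 SR genes and -0.42 over 16 SR-related genes in the in situ polyadenylated library, and 0.33 over 9 and -0.44 over 17 in the standard library. In that comparison, 3 of the 16 and 5 of the 17 SR-related genes were above 0, so Srsf11 had the sign of most SR-related genes and the other SR genes had not. The hnRNPs lay on the side of the SR genes, at 0.25 with 11 of 16 above 0 and at 0.32 with 16 of 20. In the STAR over kallisto ratio, the medians of the SR and SR-related genes were 0.39 and -0.18 in the in situ polyadenylated nuclei, and 0.12 and -0.17 in the standard nuclei. Those of the kinases were 0.36 and 0.41 in the 2 libraries, and those of the decay genes 0.20 and 0.32.

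The genes most like the SR genes were sought by distance between 4 log2 values: in situ polyadenylated over standard by kallisto and by STAR, STAR over kallisto, and low-UMI over nuclei in the standard library. Of 749 protein-coding genes with enough UMIs, Rbm5 (distance 0.26), Prpf39 (0.29), Anxa2 (0.31) and Hspa9 (0.36) were among the 5 that lay nearest to the median of the 10. Rbm5 is an RNA-binding protein and Prpf39 is a U1 snRNP factor, while Anxa2 binds membranes and Hspa9 is a mitochondrial chaperone. Among the SR genes themselves, Srsf1 (0.30), Srsf10 (0.36) and Srsf5 (0.39) were near that median, and Srsf11 (2.06) was the farthest. The median was taken over these same genes, so nearness of some of them is built in. The SR genes were also not held to the UMI minimum set for the other genes.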

How the data were processed

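The report rests on 2 libraries, 1 per group, grouped by their labels. The authors trimmed reads with cutadapt 3.4 and processed them along 2 routes with GRCm39 and GENCODE M28. The deposited kallisto 0.48.0 and bustools 0.41.0 matrices list, for every barcode, the estimated counts of UMIs of each gene, taken by strand and not normalized. The deposited STAR 2.7.10a matrices hold whole-number UMI counts for 3791 and 8474 barcodes. The sources used here do not give how those barcodes were chosen.

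UMIs were summed per gene over the retained nuclei or low-UMI barcodes and rounded to whole numbers. The kallisto matrices held 6761140 and 10593453 UMIs, with a median of 1088 and 996 UMIs per retained nucleus. The mitochondrial limit removed 0 barcodes. Doublets were not called. Log2 ratios carry exact conditional 95% intervals of a ratio of 2 Poisson counts, and shares carry exact (Clopper-Pearson) binomial intervals. UMIs are not normalized for capture efficiency, which no interval covers. Counts of 0 were replaced by 3 UMIs. A gene was called when it lay past 2-fold of the median of protein-coding genes that reached 50 UMIs in both sets. No test was made between the libraries. Of 55414 genes, 54749 matched GENCODE M39 of the same build by unversioned identifier. M39 gave coordinates, introns, canonical lengths and sequences. Transcripts of M28 were not used here, and the releases may differ. Python 3.11.15, NumPy 2.4.6, SciPy 1.17.1 and pandas 2.3.3 were used, and the ratio code was tested on simulated data.

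All 10 members and the highest and lowest gene of each list by the library ratio are named. The nearest genes are the 5 with the smallest Euclidean distance, among genes with at least 200 kallisto UMIs in standard and 50 in in situ polyadenylated nuclei. Of these, 1 is not reported here. Genes that overlap or resemble a member were added. The members and lists were chosen with earlier results of these data known. Alternatives covered the STAR matrix, other limits on nuclei and low-UMI barcodes, centring and denominators.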

Additional observations from a re-analysis of the deposited data

How the results depend on the processing

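No paired analysis was possible because there is 1 library in each group. Of 180 log2 ratios for single SR genes under other settings, 123 had a reported interval off 0, and 11 of these took the other sign, as did 14 of the 57 whose interval held 0. By STAR, the library ratio of Srsf1 was 0.13. Without centring, those of Srsf2 and Srsf11 were -0.59 and -0.53, and the median over the 10 genes was -1.72 in place of -0.53, since the median protein-coding gene itself is at -1.19. That median was 0.13 by STAR and -0.60 without Srsf11. For low-UMI barcodes of 1 to 10 UMIs over nuclei, Srsf3 was at -0.033 in the in situ polyadenylated library and Srsf1 at -0.065 in the standard library. For barcodes of 101 to 500 UMIs, some of which the STAR matrix lists, Srsf11 was at 0.17 and 0.32 and Srsf3 at -0.17 and -0.076. There, Srsf1 was at -0.35 and Srsf6 at -0.054 in the standard library, whose median over the 10 genes was 0.0046 in place of 0.40.

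The share of all UMIs in the 10 SR genes was 0.138% in the in situ polyadenylated and 0.239% in the standard nuclei. Without Srsf11, a setting chosen after seeing the data, as were the levels by range of barcode depth, it was 0.0329% and 0.0877%. By STAR it was 0.0688% and 0.184%. Of protein-coding UMIs it was 0.474% and 0.431%, so the order of the libraries turned, which it did not by STAR (0.113% and 0.247%) or without Srsf11 (0.113% and 0.158%). By STAR, a share of protein-coding UMIs and a ratio to the median gene thus differ in direction. The sum of the 10 was at 0.50 relative to that median, which itself was at -1.92. Above 500 UMIs per nucleus the share of all UMIs was 0.144% and 0.252%. In the in situ polyadenylated nuclei it was 0.122% above 1500 UMIs, 0.147% as a mean over nuclei and 0.145% without the 5% of nuclei with the most UMIs. Causes of these shifts were not tested, apart from the shared centring and the smaller denominators.

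Depth limits Srsf9 and Srsf1 most, and with 1 library per group the spread between libraries is unknown.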
